A study of Arabidopsis thaliana with 42 samples.

Results

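A group of 108 genes of 33602 counted loci had a daily change in wild-type Arabidopsis thaliana that was damped in the link1link2 double mutant. Members were chosen from the long-day experiment by a rule on mean levels in CPM (the count scaled by the library's total). The range of a gene in a genotype was its highest mean over the 6 harvest times divided by its lowest, after 0.5 CPM was added to each. A member had a highest wild-type mean of at least 10 CPM, a wild-type range from 3 to under 8, and a range under 2 in link1link2. The wild-type conditions alone were met by 1172 genes, and with the genotypes exchanged the same rule gave 109 genes. All 36 long-day libraries entered the rule, so long-day values are given below as a description, without tests. The libraries of a second experiment, in continuous light, did not enter it, and these are the basis of the tests.

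The libraries came from messenger RNA of seedlings of the link1link2 double mutant and of Col-0 wild type, grown on MS medium at 22 °C. In continuous light there were 3 libraries of each genotype. In long days (16 h of light and 8 h of darkness) harvests ran at intervals of 4 h from ZT2, where ZT (zeitgeber time) counts hours from lights on, to ZT22, with 3 libraries of each genotype at each time. The labels give the age as 9 days, the series' own design text gives a longer growth in continuous light, and neither states the alleles or whether replicates were separate cultures. The p-values below therefore measure the spread between these libraries, which may be technical.

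The names LINK1 and LINK2 were taken to stand for LNK1 and LNK2. LNK proteins are induced by light and act as coactivators of MYB-like clock proteins of the RVE family, which bind the evening element, a short promoter word typical of genes that peak late in the day. A clock output gene is one whose level is moved through the day by such clock factors without being part of the clock itself. A level can also follow light directly, and in light-dark cycles these cannot be told apart. A daily change can be damped by a lower peak, by a raised trough or by both, and these outcomes are kept apart below.

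Library totals ran from 7259559 to 13576565 counts in long days and from 11448934 to 14911921 in continuous light. At ZT2 LNK2 was at 13.1, 10.2 and 10.98 CPM in link1link2 libraries, against 628, 700.1 and 673 CPM in wild-type libraries. LNK1 was less reduced, with 68.3, 71.8 and 72.2 CPM in link1link2 libraries and 225, 235 and 231 CPM in wild-type libraries at ZT2. Both genes averaged lower in link1link2 at ZT2, ZT6 and ZT10 and in continuous light, but higher at ZT14 (LNK1 26.3 against 4.90 CPM in wild type, LNK2 25.2 against 8.09 CPM) and ZT18 (LNK1 5.17 against 0.509 CPM in wild type, LNK2 29.6 against 8.06 CPM). At ZT22 LNK1 was higher in link1link2 and LNK2 lower. The mutant columns were assigned by elimination, since their names do not state the genotype, and the alleles are not given, so whether the counted reads lie outside the disrupted stretch is not known. Chloroplast transcripts took over 2% of the counts in 4 long-day libraries. Summed levels of 6 markers of photosynthetic tissue spanned 19035 to 46338 CPM in link1link2 libraries and 24339 to 49882 CPM in wild-type libraries over the day. Those of 10 root markers spanned 233 to 494 CPM in link1link2 and 246 to 499.5 CPM in wild type. In long days those of 6 seed or embryo markers spanned 0 to 14.99 CPM in link1link2 and 0 to 8.74 CPM in wild type. In continuous light they spanned 0.201 to 0.757 CPM in link1link2 and 0.611 to 11.19 CPM in wild type. Of these markers only the seed storage gene SESA1 was at 0 in every library. In tissue extracts such as these, fewer cells of a type and less RNA per cell cannot be told apart.

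The most frequent wild-type peak time of the members was ZT10, late in the light period. The highest wild-type mean fell at ZT10 in 42 members, 38.9% of them, while of the 1172 genes that met the wild-type conditions 19.0% peaked there. A further 19 members peaked at ZT6, 20 at ZT14, 12 at ZT18, 9 at ZT22 and 6 at ZT2. The early morning was thinly filled, with 5.56% of members at ZT2, against 20.8% of the genes that met the wild-type conditions. The shares were not tested, since the rule acts on the same libraries.

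**Figure D1:**
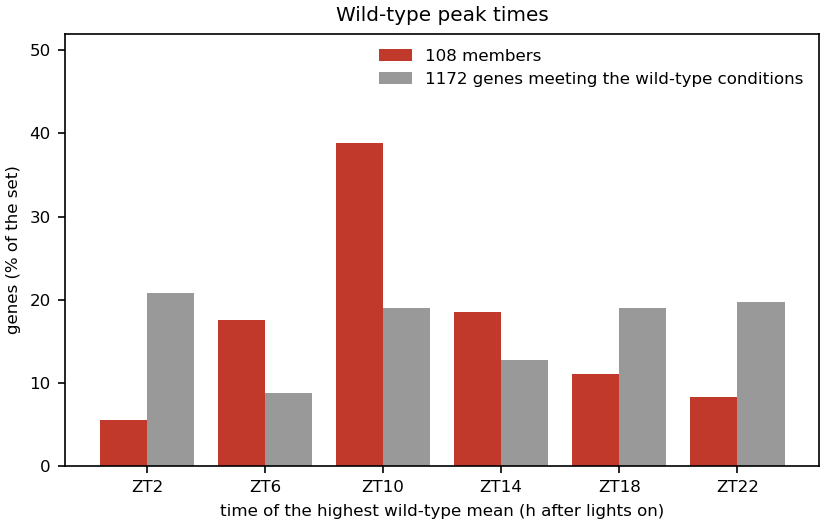
Share of genes, in percent of each set, whose highest wild-type mean fell at each of the 6 harvest times, for the 108 members (left bar of each pair) and the 1172 genes meeting the wild-type conditions (right bar). The members' share is 38.9% at ZT10, where that of the larger set is 19.0%.

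Promoters were searched for the evening element, AAAATATCT on either strand, in the 250 bases before the annotated start, because so many members peaked at ZT10. It was found in 7 of 104 member promoters (6.73%), in 4.16% of 1130 promoters of genes that met the wild-type conditions and in 2.40% of all 26711 coding promoters. Of the ZT10-peaking members 6 of 41 held it (14.6%), close to the 12.3% of the ZT10-peaking genes that met the wild-type conditions. The same window held the CCA1-binding site, AAAAATCT, in 9.62% of member promoters, 7.35% of promoters of genes that met the wild-type conditions and 6.74% of all coding promoters. The G-box CACGTG was in 8.65% of member promoters, which is under the 9.82% of genes that met the wild-type conditions and above the 6.58% of all coding promoters. The telo-box AAACCCT was in 1.92% of member promoters, 3.72% of those that met the wild-type conditions and 7.27% of all. The protein box ATGGGCC was in 1.92% of member promoters, 4.16% of those that met the wild-type conditions and 7.38% of all. Site II, GGCCCA, was in 8.65% of member promoters, much as in the 8.32% of those that met the wild-type conditions, and in 13.9% of all. The GATA or I-box, GATAAG, was in 11.5% of member promoters, 14.2% of those that met the wild-type conditions and 12.2% of all, and the word CATGTG in 11.5%, 14.2% and 11.2% of the same sets. None of these differences between sets was tested, and the telo-box and the protein box were each found in 2 member promoters. A match describes letters in a window and is not evidence of binding.

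The promoters with an evening element are shown to let its copies and their surroundings be compared, from RefSeq's TAIR10.1 assembly, on the strand of the gene, with the word (or its reverse complement) in capitals and up to 25 bases on each side. The dehydrin gene AT1G54410, with 2 copies, is shown over its whole window of 250 bases before the start, chr1:20310851-20311100 on the minus strand. The sites of the other members were chr4:10464513-10464556 on the minus strand for ERD3, chr4:18275217-18275253 on the minus strand for GRP8, chr3:5804283-5804339 on the minus strand for AT3G17020, chr5:21068496-21068554 on the minus strand for PGM, chr3:10086806-10086864 on the minus strand for G6PD5 and chr5:2563116-2563169 on the plus strand for E13L3.
AT1G54410: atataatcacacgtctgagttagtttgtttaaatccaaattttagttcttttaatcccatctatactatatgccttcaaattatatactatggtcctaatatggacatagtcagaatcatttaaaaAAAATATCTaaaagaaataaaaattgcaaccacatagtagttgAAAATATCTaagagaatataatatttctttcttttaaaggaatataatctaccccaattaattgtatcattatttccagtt
ERD3: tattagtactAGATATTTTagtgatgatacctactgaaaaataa
GRP8: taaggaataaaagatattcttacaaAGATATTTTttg
AT3G17020: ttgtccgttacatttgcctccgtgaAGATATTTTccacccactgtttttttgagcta
PGM: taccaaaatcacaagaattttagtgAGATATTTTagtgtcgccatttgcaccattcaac
G6PD5: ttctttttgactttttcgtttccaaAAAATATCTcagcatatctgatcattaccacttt
E13L3: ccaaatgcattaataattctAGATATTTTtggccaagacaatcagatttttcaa
The first base of the word lay between 12 bases (GRP8) and 240 bases (ERD3) before the start. All of these members had their highest wild-type mean at ZT10 except E13L3, annotated as a glucan endo-1,3-beta-glucosidase-like protein. Its highest wild-type mean fell at ZT14 (33.9 ± 3.44 CPM), but the mean at ZT10 was nearly the same (33.8 ± 2.27 CPM, SD, n = 3 each).

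Across the 108 members the median range was 1.795 in link1link2 (from 1.26 to 2.00) and 3.56 in wild type (from 3.00 to 5.89). These values follow from the rule. What it left free was where the flattened mutant level came to lie. On a scale from 0, the lowest wild-type time, to 1, the highest wild-type time, the mutant's mean over the day had a median position of 0.50, the same as in the genes that met the wild-type conditions (0.50). The members were spread widely around it: 14 lay under 0.25, near the wild-type trough, and 10 over 0.75, near the wild-type peak.

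At the wild-type peak time the median log2 ratio of link1link2 to wild type was -0.65, and at the wild-type trough time it was 0.57. With 1.5-fold as the limit, 45 members had only a lower peak in the mutant, 33 only a raised trough, 17 both and 13 neither. Over all 14471 genes with a wild-type highest mean of at least 10 CPM, 6.40% were at least 1.5-fold lower in the mutant at the wild-type peak and 5.88% at least 1.5-fold higher at the trough. All 3 mutant libraries lay below all 3 wild-type libraries at the wild-type peak in 92 members, against 30.4% of those 14471 genes. They lay above at the trough in 83 members, against 31.8%. The rule fixes the range of each genotype, so nothing is read from these counts.

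In 104 members the 3 mutant libraries at the mutant's own highest time exceeded the 3 at its lowest, as they did in 96.1% of the 14471 genes. These times were picked from the same libraries, so whether a daily change remained in the mutant is not read from this count. The mutant peaked at the same harvest time as wild type in 54 members and 4 h later in 28. With so small a range the time of the mutant's highest mean is poorly fixed.

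**Figure D2:**
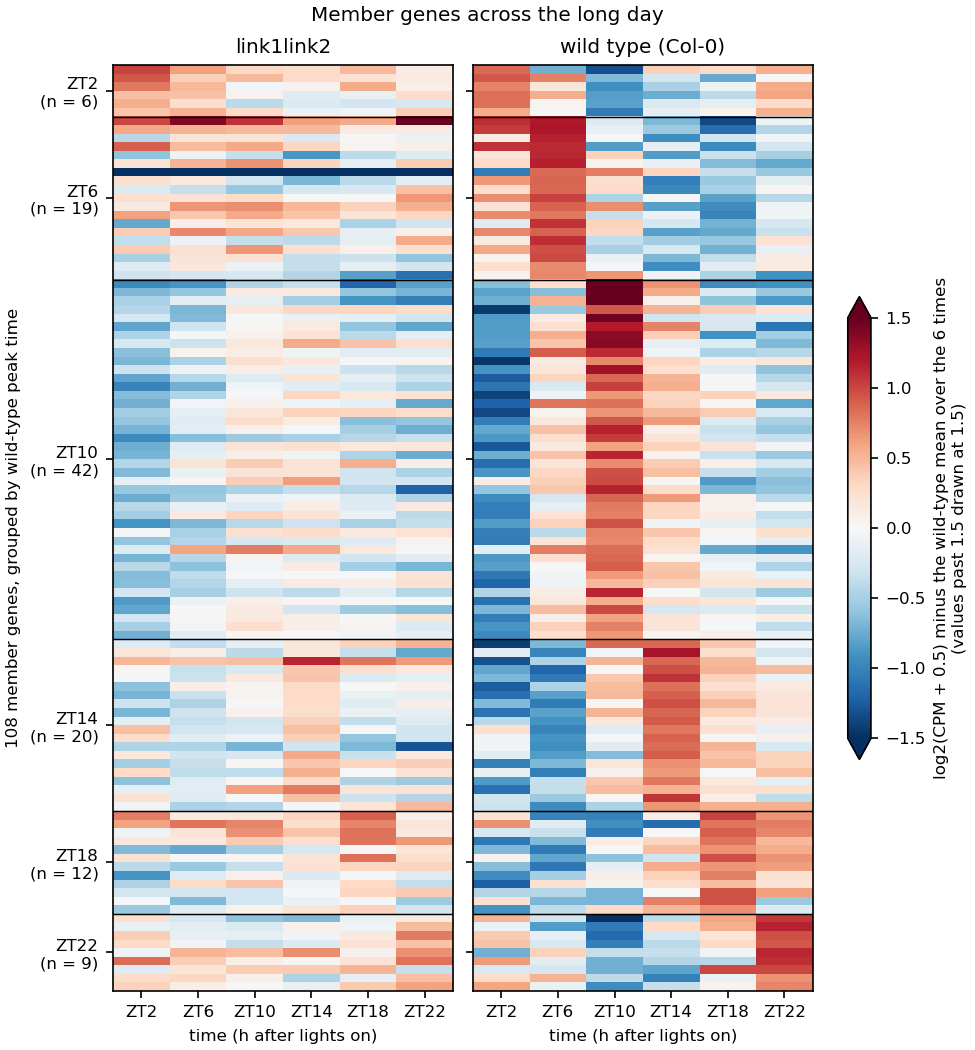
Mean level of each of the 108 members (rows) at the 6 harvest times, in link1link2 (left) and wild type (right), as log2(CPM + 0.5) minus the gene's wild-type mean over the day. Rows are grouped by wild-type peak time; the diagonal of high values in wild type is faint in link1link2, and the uniformly dark blue row in the ZT6 block is AT1G14250.

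The counts of each outcome differed between the wild-type peak times. This is a description, since the rule acts on the same libraries and some groups are small. Of the 42 members that peaked at ZT10, 28 had only a lower peak in the mutant, 6 only a raised trough, 4 both and 4 neither, and their median log2 ratio at the wild-type peak was -0.90. The mutant's mean over the day was lower than that of wild type in 35 of these 42. It was also lower in 185 of the 223 ZT10-peaking genes that met the wild-type conditions, a similar share. No member that peaked at ZT2 or at ZT22 had only a lower peak: 5 of 6 at ZT2 and 5 of 9 at ZT22 had only a raised trough, and 3 more at ZT22 had both. Among the 1172 genes that met the wild-type conditions, 137 of 223 ZT10-peaking genes had only a lower peak and 105 of 244 ZT2-peaking genes only a raised trough. At ZT22, 165 of 231 genes of this larger set passed neither limit.

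**Figure D3:**
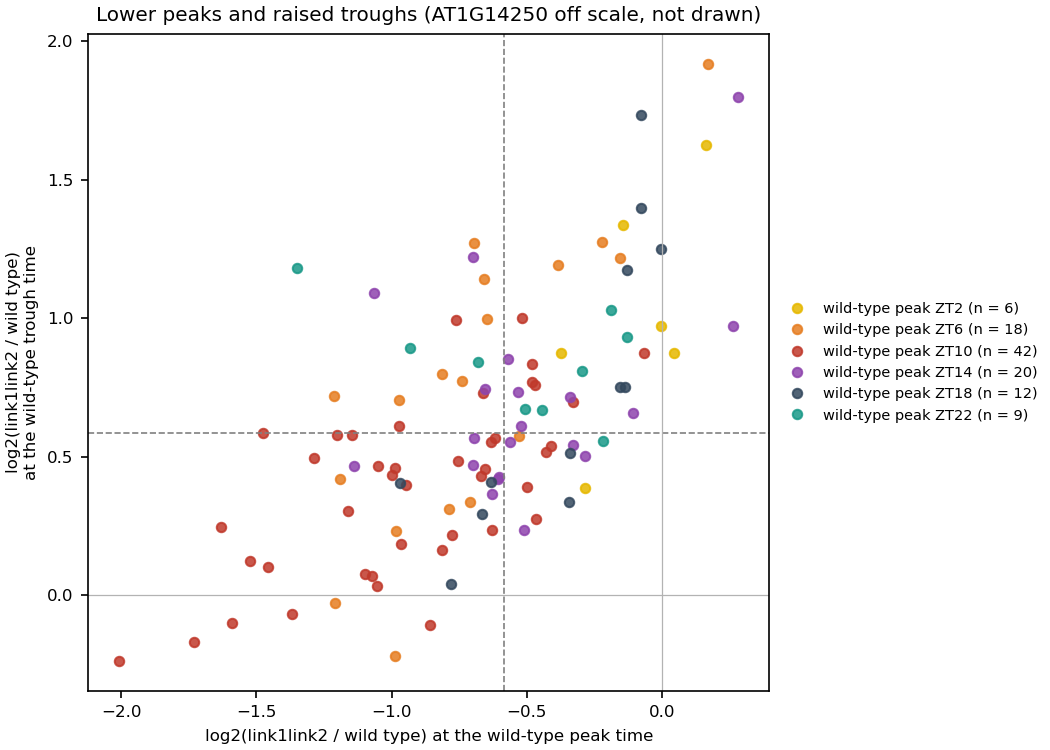
Log2 ratio of link1link2 to wild type for 107 members at the gene's wild-type peak time (horizontal axis) and wild-type trough time (vertical axis), coloured by wild-type peak time; dashed lines mark 1.5-fold. Most ZT10-peaking genes lie left of the vertical dashed line and below the horizontal one, and the ZT2-peaking genes lie right of the vertical line.

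Among the ZT10-peaking members were genes of dehydration and cold responses. AT1G54410, which encodes a dehydrin, a hydrophilic protein class that protects cells in drying and cold, had the highest wild-type peak of this group. It was at 430.3, 414 and 346 CPM in link1link2 libraries at ZT10, against 1252, 1088 and 1245 CPM in wild-type libraries. At ZT2, its wild-type trough, it was at 316, 299 and 276 CPM in link1link2 and 315, 307 and 334 CPM in wild type. The libraries of the genotypes were thus far apart at the peak and overlapped at the trough, and no afternoon peak was seen in the mutant. COR47, another dehydrin, was at 262, 316 and 265 CPM in link1link2 at ZT10, against 789, 709.7 and 821 CPM in wild type. With a mutant range of 1.26 it was the flattest of all members, and at its wild-type trough (ZT22) the values of link1link2, 279, 270.0 and 228 CPM, spanned those of wild type, 235, 236 and 254 CPM.

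ERD3 and ERD7 carry names from early responses to dehydration. ERD3, annotated as a methyltransferase, was at 41.5, 46.99 and 49.3 CPM in link1link2 at ZT10 and 132, 121 and 146 CPM in wild type. ERD7 was at 54.1, 52.8 and 50.5 CPM in link1link2 and 117, 115 and 119 CPM in wild type at the same time. Neither gene overlapped between the genotypes at ZT10. At the wild-type trough, ZT2, ERD7 was higher in the mutant (35.9, 40.9 and 39.9 CPM) than in wild type (24.9, 23.1 and 29.6 CPM), while ERD3 overlapped (32.04, 21.9 and 24.4 CPM in link1link2, 23.4, 23.5 and 24.9 CPM in wild type).

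Other members with the largest ratios of wild-type to mutant range also peaked at ZT10. AT3G22142, annotated as a lipid-transfer-like protein, was at 49.03, 59.6 and 55.6 CPM in link1link2 and 153, 149 and 158 CPM in wild type at ZT10. At ZT2 it was at 45.2, 46.2 and 47.2 CPM in link1link2 and 27.8, 31.4 and 32.7 CPM in wild type, so it was lower at the peak and higher at the trough. AT1G48330 was at 6.97, 6.82 and 6.02 CPM in link1link2 and 27.6, 24.6 and 32.04 CPM in wild type at its peak, and at its trough (ZT18) it was low in both, at 4.56, 3.85 and 2.92 CPM in link1link2 and 4.16, 4.90 and 4.56 CPM in wild type. Over the 6 harvests the means of AT1G48330 lay between 3.78 and 7.18 CPM in link1link2, against 4.54 to 28.1 CPM in wild type. AT3G55760, which has no symbol in the annotation used, was at 21.5, 22.8 and 21.2 CPM in link1link2 at ZT10. In wild type it was at 72.7, 63.05 and 85.1 CPM at that time. The protein phosphatase 2C gene AT5G27930 was at 10.3, 10.9 and 11.5 CPM in link1link2 and 29.9, 24.99 and 27.3 CPM in wild type. In all of these the 3 mutant libraries lay below the 3 wild-type libraries at the peak.

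A pair of ZT10-peaking members stood on the gene lists for the evening clock and for starch. GRP8 (named CCR1 in the annotation), an RNA-binding protein and well-known clock output, was at 217, 247 and 219 CPM in link1link2 and 527, 449 and 597 CPM in wild type at ZT10. Its trough at ZT2 was raised, with 162, 187 and 168 CPM in link1link2 and 116, 102 and 128 CPM in wild type. In the mutant GRP8 was highest at ZT14, with a mean of 299 CPM against 187 CPM in wild type. It averaged 273 CPM in link1link2 and 178 CPM in wild type at ZT18, and 241 and 129 CPM at ZT22. The libraries of the genotypes did not overlap at ZT14, ZT18 or ZT22. PGM, the plastid phosphoglucomutase needed for starch synthesis, was at 81.2, 88.03 and 87.7 CPM in link1link2 and 169, 152 and 181 CPM in wild type at ZT10. Its libraries at ZT2 differed less, with 62.6, 47.5 and 52.8 CPM in link1link2 and 49.6, 48.3 and 45.3 CPM in wild type. Of the other carriers of an evening element, AT3G17020 averaged 78.5 ± 9.97 CPM in link1link2 and 156 ± 10.8 CPM in wild type at the peak (SD, n = 3 each), and the glucose-6-phosphate dehydrogenase gene G6PD5 averaged 41.2 ± 2.64 CPM in link1link2 and 55.7 ± 5.98 CPM in wild type.

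The midday group, which peaked at ZT6 in wild type, held both outcomes. HFR1 encodes an atypical bHLH protein that restrains growth responses to shade. At ZT6 it was at 27.8, 32.8 and 41.2 CPM in link1link2 and 28.01, 29.1 and 33.1 CPM in wild type, so the genotypes overlapped. At ZT18 it was at 20.9, 19.04 and 17.65 CPM in link1link2 and 3.26, 5.85 and 4.99 CPM in wild type. The night trough of wild type was shallow in the mutant, in which HFR1 was highest at ZT22.

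CAB1 (LHCB1.3), a chlorophyll-binding protein of the main light-harvesting antenna, was the most abundant member by counts. It was at 20289.6, 21571 and 22031 CPM in link1link2 at ZT6 and 24257, 24776 and 25425 CPM in wild type. At ZT18 it was at 17975, 16088 and 17180.0 CPM in link1link2 and 6512, 6759 and 7914 CPM in wild type. The separation was small at the peak and large at night. Its transcript is 91.7% identical to that of CAB3 over 974 bases, so the split of reads between these copies is uncertain.

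The opposite outcome, a lower midday peak over a similar trough, was seen in CYP71B4, a cytochrome P450 gene. It was at 27.8, 26.5 and 25.6 CPM in link1link2 and 59.5, 63.03 and 64.5 CPM in wild type at ZT6. At ZT14 it was at 15.01, 14.97 and 15.7 CPM in link1link2 and 15.97, 14.7 and 15.9 CPM in wild type. GPX1, a plastid glutathione peroxidase that detoxifies peroxides, was at 274, 319.7 and 279.9 CPM in link1link2 and 462, 479 and 490.1 CPM in wild type at ZT6. Its trough was slightly raised, at 160.1, 179.6 and 146 CPM in link1link2 and 122, 136 and 127 CPM in wild type. In GPX1 the genotypes were separate at both times, by more at the peak. The hydrolase gene AT1G74640 was at 30.8, 30.7 and 33.3 CPM in link1link2 and 60.9, 66.6 and 61.8 CPM in wild type at ZT6, and AT1G76240 at 17.4, 17.1 and 18.6 CPM in link1link2 and 31.6, 35.3 and 38.6 CPM in wild type. Both were lower at midday in every mutant library. The trough of AT1G76240, at ZT14, was not similar but raised. It was at 11.02, 12.3 and 15.8 CPM in link1link2 and 9.02, 7.60 and 6.76 CPM in wild type. SNG1, which makes the sunscreen compound sinapoylmalate, passed neither limit, with 239, 266 and 238 CPM in link1link2 and 354, 348 and 369 CPM in wild type at the peak, and 179, 181 and 153 CPM in link1link2 and 118, 113 and 113 CPM in wild type at the trough.

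**Figure D4:**
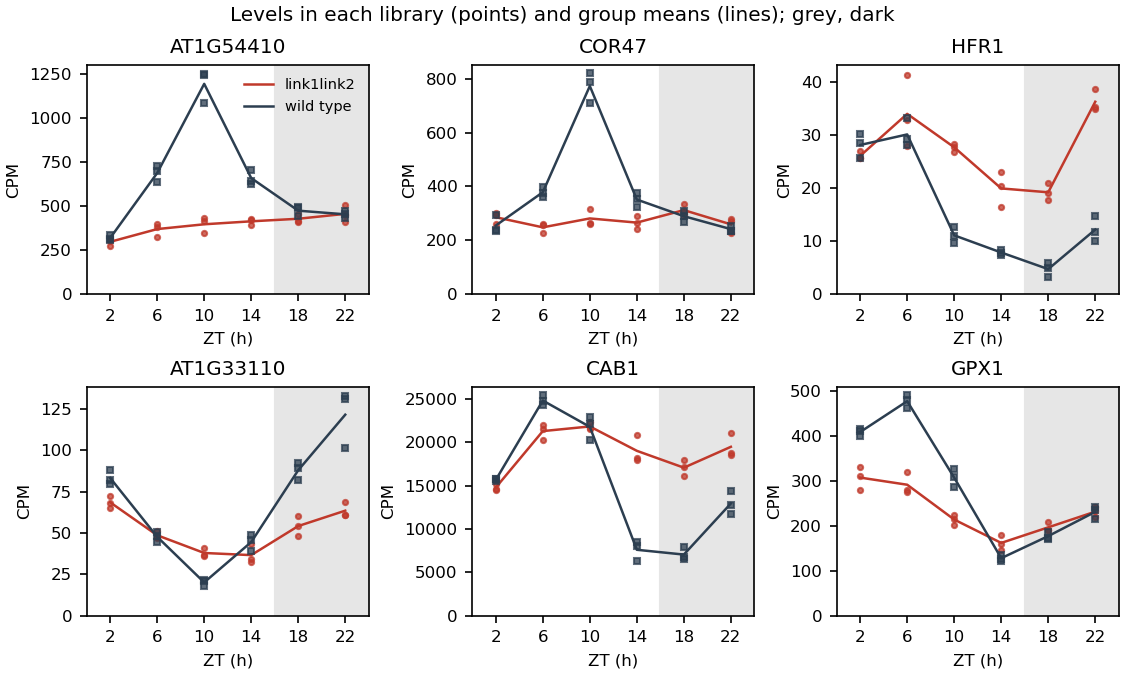
Levels of 6 members in CPM over the long day, link1link2 in red and wild type in dark blue, points for single libraries, lines for means of 3, with the dark period in grey. AT1G54410 and COR47 lack the ZT10 peak in link1link2, and AT1G33110 is lower at its wild-type peak and higher at its trough. HFR1 and CAB1 are above wild type at both night harvests, although HFR1 is lowest in link1link2 at ZT18.

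The member with the largest ratio of ranges was AT1G29460, a SAUR-like gene. SAUR genes are small auxin-responsive genes, many of which promote cell elongation. It was at 5.04, 6.63 and 7.405 CPM in link1link2 and 10.3, 10.9 and 10.6 CPM in wild type at ZT6. At ZT18 it was at 4.69, 5.10 and 4.44 CPM in link1link2 and 1.35, 1.49 and 2.17 CPM in wild type. Its levels were low, and it had the smallest wild-type peak of all members. After the values were seen, 5 SAUR-like members were noticed within 1 cluster on chromosome 1, the others being SAUR63, AT1G29450, AT1G29500 and SAUR68, out of 11 SAUR-like genes that met the wild-type conditions. Mutant ranges were 1.81, 1.51, 1.33 and 1.72 for these 4 genes, and wild-type ranges 4.22, 3.18, 3.46 and 3.21. SAUR63 and SAUR68 are 91.7% identical over 552 bases, so they are not independent observations.

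AT1G14250, annotated as a nucleoside phosphatase of the GDA1/CD39 family, met the rule in another way. It was at 0.120, 0.337 and 0 CPM in link1link2 and 19.2, 15.1 and 16.1 CPM in wild type at ZT6. At ZT2 no count was found in 3 link1link2 libraries, which allows up to 0.101 CPM over them (3 counts of their total), against 5.41, 3.68 and 3.35 CPM in wild type. It was the only member whose mutant mean over the day was under 1 CPM, and a level so close to 0 cannot show a range of 2 once 0.5 CPM is added. In this gene the level itself was near 0 in the mutant at all 6 times.

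Of the members that peaked at ZT14, GRP-3, a glycine-rich protein of the cell wall, was at 912, 701 and 661 CPM in link1link2 and 620.4, 594 and 655 CPM in wild type at the peak. At ZT2 it was at 405, 463 and 587 CPM in link1link2 and 138, 148 and 131 CPM in wild type. The mutant's mean lay near the wild-type peak, at position 0.91. AT1G78020, a DUF581 gene, was at 120.4, 102 and 136 CPM in link1link2 and 261, 234 and 256 CPM in wild type at ZT14, and at ZT6 at 112, 109 and 118 CPM in link1link2 and 55.9, 53.2 and 49.2 CPM in wild type. NRT1.7, a nitrate transporter that moves nitrate out of older leaves, was at 78.1, 64.9 and 73.4 CPM in link1link2 and 113, 112 and 116 CPM in wild type at ZT14. At ZT6 it was at 47.7, 40.7 and 40.2 CPM in link1link2 and 25.9, 26.5 and 23.7 CPM in wild type. Both of these genes lay between the wild-type extremes at both times. LHCB4.3, a minor antenna protein of photosystem II, was at 7.16, 7.29 and 5.39 CPM in link1link2 and 16.1, 15.5 and 13.9 CPM in wild type at ZT14. Its trough libraries were all higher in the mutant, at 7.56, 5.51 and 4.64 CPM in link1link2 and 4.16, 4.34 and 3.89 CPM in wild type.

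Of the 12 members that peaked at ZT18, 6 had only a raised trough, 4 only a lower peak and 2 passed neither limit. XTH6, a xyloglucan-modifying enzyme of the cell wall, was at 102, 81.6 and 105 CPM in link1link2 and 97.99, 97.2 and 109 CPM in wild type at ZT18, its wild-type peak. At ZT14 it was at 64.9, 69.5 and 70.4 CPM in link1link2 and 24.6, 24.2 and 27.99 CPM in wild type. XTH6 thus overlapped between the genotypes at its peak and was separate at its trough. GSTF10, a glutathione S-transferase, was at 347, 351 and 322 CPM in link1link2 and 459, 429 and 406 CPM in wild type at ZT18. AT1G58602, an NB-LRR disease resistance gene with a short stretch of 98.5% identity to AT1G59218, was lower at its peak, with 198, 188 and 216 CPM in link1link2 and 315, 322 and 319 CPM in wild type at ZT18. The EF-hand calcium-binding gene AT2G41090 was also lower at ZT18, with 39.2, 39.1 and 49.3 CPM in link1link2 and 72.8, 91.6 and 87.1 CPM in wild type.

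At ZT22 the MATE efflux gene AT1G33110, which had the largest wild-type range of all members, was at 60.7, 68.8 and 60.9 CPM in link1link2 and 131, 101 and 132 CPM in wild type. At ZT10 it was at 36.8, 36.1 and 40.9 CPM in link1link2 and 17.8, 21.5 and 21.3 CPM in wild type. TAS3, a noncoding precursor of small RNAs that act on auxin response factors, was at 33.8, 31.7 and 36.1 CPM in link1link2 and 58.2, 54.5 and 51.2 CPM in wild type at ZT22, and at ZT10 at 24.7, 18.5 and 19.4 CPM in link1link2 and 13.01, 9.97 and 11.3 CPM in wild type. Both genes were damped from above and below. AT1G74470, a pyridine nucleotide-disulfide oxidoreductase, was closer to wild type at its peak, with 1627, 1592 and 1682 CPM in link1link2 and 1824, 1844 and 2037 CPM in wild type at ZT22. Of the ZT2-peaking members, the kinase gene WNK2 was at 43.5, 44.6 and 43.5 CPM in link1link2 and 53.7, 56.6 and 50.3 CPM in wild type at the peak. The calmodulin-like gene CAM9 was at 34.6, 36.1 and 38.2 CPM in link1link2 and 45.1, 45.9 and 50.5 CPM in wild type at ZT2, and at ZT10 at 27.8, 28.5 and 25.9 CPM in link1link2 and 14.6, 14.89 and 14.6 CPM in wild type.

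The edges of the rule are set by small differences. PTAC17, with a mutant range of 1.997, was the member nearest to the limit of 2, and AT1G14820, at 2.0003, was just outside. GSTF10 had a wild-type range of 3.003, and TPPB, at 2.996, was just outside. At the upper limit of 8 there was a gap, with AT1G33110 at 5.89 inside and AT3G46370 at 20.8 outside. Membership itself moved with the processing. With TMM scaling of library sizes 118 genes met the rule, of which 75 were among the 108. Leaving out any single long-day library kept between 98 and 108 members, and 71 were kept whichever library was left out.

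The experiment in continuous light asked whether the members' levels differ between the genotypes without light-dark cycles. No harvest time is given for it, so changes of level and of phase cannot be told apart in it. All 108 members were tested, by edgeR's quasi-likelihood test over 20158 genes with Benjamini-Hochberg adjustment. At an adjusted p under 0.05, 24 members (22.2%) were called, 9 higher and 15 lower in link1link2. The background was 5.15% of all genes called, with 2.18% higher and 2.98% lower. Of the 1172 genes that met the wild-type conditions 18.8% were called, 7.51% higher and 11.3% lower, and of the 1064 that were no members 18.4%. The members' share was thus close to that of other genes with a daily change of this size, and the difference was not tested. The median log2 fold change of the members was -0.08. Only 3 of the 24 differed by 2-fold or more.

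The calls were uneven across wild-type peak times. They comprised 8 of 19 members that peaked at ZT6 (42.1%), where 35.0% of the genes that met the wild-type conditions were called. At ZT18 there were 5 of 12 (41.7%), against 14.0%. At ZT14 there were 5 of 20 (25%), and at ZT10 6 of 42 (14.3%), against 35.6% and 13.5% of the genes that met the wild-type conditions at these times. No member that peaked at ZT2 or ZT22 was called, of 6 and 9 tested, where 16.4% and 13.0% of the genes that met the wild-type conditions were called. With so few members, 0 calls cannot be told from those shares. Among all 108 members 44 had an unadjusted p under 0.05 (40.7%), as had 40.6% of the genes that met the wild-type conditions and 16.9% of all genes tested.

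**Figure D5:**
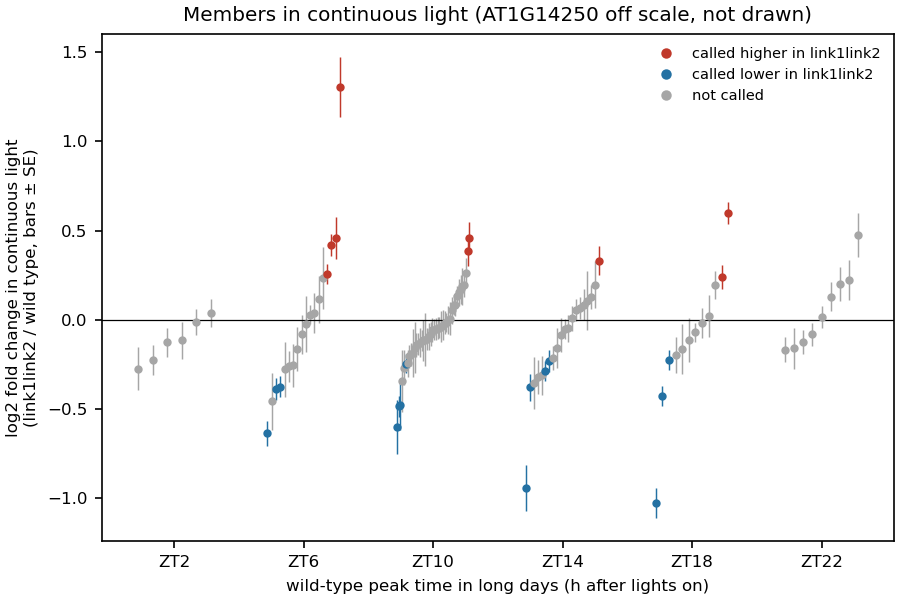
Log2 fold change of link1link2 over wild type in continuous light for 107 members, with bars of 1 SE, by wild-type peak time in long days and in order of size within each time. The 9 members called higher are red and the called lower ones blue; HFR1, at 1.31, lies above all others.

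HFR1 had the largest difference of the members that rose in continuous light. It was at 8.45, 8.02 and 11.9 CPM in link1link2 libraries and 3.41, 4.097 and 4.103 CPM in wild-type libraries (log2 fold change 1.31, SE 0.17, adjusted p = 4.70e-05). XTH6 was at 96.5, 92.2 and 82.96 CPM in link1link2 and 58.7, 64.4 and 60.3 CPM in wild type (log2 fold change 0.60, SE 0.06, adjusted p = 2.03e-06). CAB1 was at 17908, 18096 and 18075 CPM in link1link2 and 12925, 14493 and 13916 CPM in wild type (log2 fold change 0.42, SE 0.06, adjusted p = 0.000104). In these members, each with a raised trough in long days, no mutant library overlapped a wild-type one. AT3G22142 also rose (log2 fold change 0.39, SE 0.09, adjusted p = 0.0122), but its adjusted p was 0.0549 when link1link2 library B was left out and 0.0520 when wild-type library C was. AT1G76240 rose by 0.46 on the log2 scale (adjusted p = 0.0252) but missed the threshold when link1link2 library A (0.101), wild-type library A (0.0681) or wild-type library B (0.183) was left out.

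A further 3 members that rose overlap neighbouring loci, so that without stated strand counting their reads are uncertain, and AGP12, the ninth, had an adjusted p of 0.0477. ATM2, a myosin, was at 92.01, 85.8 and 89.8 CPM in link1link2 and 75.03, 75.7 and 77.95 CPM in wild type (log2 fold change 0.26, SE 0.06, adjusted p = 0.00687). It shares 186 exonic bases with LHCB3 on the opposite strand, whose long-day counts were 3607% of those of ATM2. AT1G73470 rose by 0.46 (adjusted p = 0.00179) and shares 25 bases with AT1G73460, at 248.5% of its counts. NAKR3 rose by 0.33 (adjusted p = 0.0168), shares 174 bases with TRM19, and missed the threshold when link1link2 library B (0.102), wild-type library A (0.0803) or wild-type library C (0.0707) was left out. Without the members that have a near copy or an overlapping locus of at least 50% of their counts, 19 of 88 were called, 5 higher and 14 lower.

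Among the members that fell, AT1G14250 had the largest difference, with 2.62, 2.65 and 3.18 CPM in link1link2 and 47.9, 40.97 and 58.5 CPM in wild type (log2 fold change -4.09, SE 0.19, adjusted p = 1.82e-06). AT2G41090 was at 70.4, 69.2 and 52.5 CPM in link1link2 and 139, 133 and 129 CPM in wild type (log2 fold change -1.03, SE 0.08, adjusted p = 3.62e-06). LHCB4.3 was at 33.2, 31.2 and 22.04 CPM in link1link2 and 60.8, 52.6 and 57.7 CPM in wild type (log2 fold change -0.95, SE 0.13, adjusted p = 0.00485). This is the opposite direction to CAB1, so the antenna genes among the members did not move together. The dehydrin gene AT1G54410 was at 431, 373 and 390.1 CPM in link1link2 and 591, 556 and 564 CPM in wild type (log2 fold change -0.49, SE 0.06, adjusted p = 1.48e-05). CYP71B4 was at 22.9, 20.6 and 20.2 CPM in link1link2 and 33.5, 34.97 and 32.9 CPM in wild type (log2 fold change -0.64, SE 0.07, adjusted p = 4.86e-06). All 3 mutant libraries were lower than all 3 wild-type libraries in each of these genes.

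GPX1 fell by 0.38 on the log2 scale (adjusted p = 0.000307), with 193, 193 and 190.2 CPM in link1link2 and 242, 275 and 246 CPM in wild type. AT1G58602 fell by 0.43 (adjusted p = 6.04e-05), AT1G74640 by 0.39 (adjusted p = 0.000381) and AT1G78020 by 0.29 (adjusted p = 0.00262). GSTF10 fell by 0.23 (adjusted p = 0.0176) but missed the threshold when link1link2 library B (0.103), wild-type library A (0.0646) or wild-type library B (0.0966) was left out. In all, 21 of the 24 called members had the sign of the mutant's mean difference over the long day, as had 72 of all 108. The same share was not computed for other genes, so it is not read as a trait of the members.

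Members with the largest differences at the afternoon peak were mostly not called. COR47 was at 241, 197 and 187 CPM in link1link2 and 206, 187 and 180.4 CPM in wild type (log2 fold change 0.15, SE 0.08, adjusted p = 0.324). ERD3 was at 48.7, 45.7 and 42.4 CPM in link1link2 and 47.5, 49.7 and 47.1 CPM in wild type (log2 fold change -0.05, SE 0.06, adjusted p = 0.798). For AT5G27930 the log2 fold change was 0.00 (adjusted p = 0.989). These genes overlapped between the genotypes in continuous light, although they did not at ZT10. ERD7 (-0.21, adjusted p = 0.0735), AT3G55760 (-0.24, adjusted p = 0.0676) and AT1G48330 (-0.19, adjusted p = 0.552) had negative values that missed the threshold. GRP8 was at 205, 174 and 194 CPM in link1link2 and 162, 166 and 184 CPM in wild type (log2 fold change 0.19, SE 0.06, adjusted p = 0.0961), and it was called when link1link2 library B (0.0411) or wild-type library C (0.0335) was left out.

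Values near 0 were found for several members. The log2 fold change was -0.11 for PGM (adjusted p = 0.395), 0.03 for SNG1 (adjusted p = 0.867) and -0.05 for NRT1.7 (adjusted p = 0.737). It was -0.05 for GRP-3 (adjusted p = 0.828), -0.01 for WNK2 (adjusted p = 0.962) and 0.01 for AT1G74470 (adjusted p = 0.948). AT1G33110 (-0.13, adjusted p = 0.352), TAS3 (-0.17, adjusted p = 0.203) and AT1G29460 (0.23, adjusted p = 0.573) also missed the threshold, as did CAM9 (-0.23, adjusted p = 0.142), which was called when wild-type library A was left out (0.0366). A missed threshold does not show that levels were equal.

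Of 19 lists of known pathways 7 had any member, 8 members in all. Over all genes 108 of the 1172 that met the wild-type conditions were members, and no list had more than 14 such genes. With so few, the presence or absence of members on a list is a description and was not tested. The lists were written from textbook knowledge and do not hold every gene of a pathway. None of the 13 dawn-phased clock genes met the wild-type conditions, and of 18 day- to evening-phased clock genes 2 did, with GRP8 the only member. Of 49 genes of light harvesting and the photosystems 14 met the wild-type conditions and CAB1 and LHCB4.3 were members. In continuous light 11 genes of that list rose, 3 fell and 35 were not called. Of the 29 listed starch genes 9 met the wild-type conditions and PGM was the only member among them. Of 27 tested, 2 rose and 7 fell. Of 39 genes of flavonoid and phenylpropanoid synthesis 10 met the wild-type conditions and SNG1 was the only member; of 33 tested none rose and 20 fell, with a median log2 fold change of -0.42.

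The cold response list of 21 genes had 3 that met the wild-type conditions, with COR47 as the member, and 3 of 18 tested rose and 3 fell. HFR1 was the member among 48 light-signalling genes, of which 5 rose and 2 fell, and NRT1.7 among 44 genes of nitrogen and sulfur use, of which 7 of 41 tested rose and none fell. No member stood on the lists for flowering time, auxin and elongation, abscisic acid, ethylene and jasmonate, sugar starvation or heat shock. The auxin and elongation list did not hold the 5 SAUR-like members or XTH6, so it does not cover all genes of that kind. By annotation keyword the members included 5 kinase genes of 70 that met the wild-type conditions and 5 transcription factor or DNA-binding genes of 63. No ribosomal protein gene was a member, of 2 that met those conditions, and no ubiquitin or F-box gene, of 27. Families noticed after the values were seen were genes with dehydrin, cold-regulated or dehydration-responsive in their annotated product (COR47, AT1G54410, ERD7 and AT4G04340, but not ERD3, whose product is given as a methyltransferase), glutathione peroxidases (GPX1 and GPX6) and NB-LRR genes (AT1G58602, AT5G41740 and AT5G58120).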

How the data were processed

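Messenger RNA was sequenced in 42 libraries. The authors deposited raw read counts per locus, 1 table for each experiment, and per the file headers 1 alignment file was counted for each library. Reads were placed on TAIR10, per the submitters' processing notes. How they were aligned and counted, whether strand was used and what was done with reads of several matches are not given in the sources used here. Columns were assigned to groups by name, wild type by the accession's name and the mutant by elimination; their letters A, B and C do not appear in the labels and name libraries only. Every pair of libraries within a group differed by more than sampling of reads would give, with a chi-square of 1.95 to 23.9 for each degree of freedom.

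Levels are CPM by column total, without length correction, so they are compared between libraries and not between genes. Counts in continuous light were tested with edgeR 4.0.16 in R 4.3.3 (filterByExpr, TMM factors, robust quasi-likelihood test, two-sided, Benjamini-Hochberg adjustment over 20158 genes, called at 0.05). On simulated data with known answers this recovered 92 of 100 genes changed 2-fold and 100 of 100 changed 4-fold; 28 unchanged genes, 12.7% of its calls, were called too. The SE given for a log2 fold change is its absolute value divided by the square root of the test's F statistic. Alternatives were DESeq2 1.42.0, other scaling, filters and libraries left out.

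Symbols, overlaps and promoters came from the RefSeq annotation of TAIR10.1, matched by locus tag for 32835 of 33602 loci, and 660 of 688 listed symbols were matched. Near copies were transcripts at least 90% identical over 100 bases (BLAST 2.17.0). Of the members 26 overlapped another counted locus, 13 of them one with at least 50% of their counts, and 7 had a near copy. TCP3 and AT1G53233, both members, share 1524 exonic bases on opposite strands, and the members AT4G17098 and AT4G17100 share 1221. The loci of each pair may count the same reads, so they are not independent observations. The members and gene lists were chosen with earlier results of these data known. The text names the 10 members with the largest ratio of ranges, the 8 with the smallest adjusted p in each direction in continuous light, those on a list and the 2 with the highest wild-type peak at each time.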

Additional observations from a re-analysis of the deposited data

How the results depend on the processing

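In continuous light 1039 genes were called; DESeq2 called 692, and leaving out 1 library gave 657 (without wild type replicate B) to 929 calls. For the members the 24 calls became 19 with DESeq2 and 19 to 24 with 1 library left out. Under a limit of 1.5 on the mutant range 9 genes met the rule, in place of 108. The members numbered 112 and 113 with pseudocounts of 0.1 and 1, and 122 without the 4 libraries rich in chloroplast counts, of which 100 were among the 108. TMM scaling shifted the mutant against wild type by -0.07 to 0.09 on the log2 scale, depending on the time. The median position of the mutant level within the wild-type range was between 0.49 and 0.50 with either other pseudocount, with TMM scaling and without the 4 libraries; computed from 1 library letter at a time it had an SD of 0.0164 (n = 3). Values near 0 changed sign: with 1 library left out AT5G27930 ran from -0.0247 to 0.0596, WNK2 from -0.0606 to 0.0396, GRP-3 from -0.117 to 0.0410 and AT1G74470 from -0.0262 to 0.0512. Over the named members 353 of the recomputed values kept direction and call, 12 changed sign, 13 lost a call and 7 gained one. DESeq2 lost the calls of NAKR3 and AT1G76240. The cause of these changes was not tested.

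The column letters were not shown to pair the libraries, since deviations from the group mean correlated at 0.133 (A), 0.0508 (B) and 0.103 (C) between same-lettered libraries, although each library correlated best with its own letter. A fit with the letter as a replicate block gave 1888 calls, with 34 members, and AT5G27930 at -0.00032. Depth limits what low members can show, but its share in their error was not tested: the SE of the log2 fold change was 0.17 for AT1G29460, with means of 4.28 CPM in link1link2 and 3.72 CPM in wild type, and 0.06 for AT1G54410, a far more abundant member.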
